A study of Mus musculus with 2 samples.

Results

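The natriuretic peptide locus was described here through its H3K27ac peaks, H3K27ac being an acetyl mark on a lysine of histone H3 that active enhancers and promoters carry. The locus holds Nppb and Nppa, neighbours on mouse chromosome 4. Members were all deposited peaks with a midpoint in chr4:147270001-147470000 of the mm9 build, a region of 200 kb around Nppb, at about 147.36 Mb, and Nppa, at about 147.375 Mb. There were 21 such peaks among 154664 in all. Of these, 18 belonged to the chamber list (67092 peaks) and 3 to the list of the atrioventricular canal (AVC, 87572 peaks).

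The study compared 2 ChIP-seq libraries from mouse hearts of embryonic stage E10.5. One came from Katushka-positive cells labelled chambers, that is atria and ventricles, and the other from EGFP-positive cells labelled atrioventricular canal, the segment between them. Katushka is a red and EGFP a green fluorescent protein, and cells were sorted on them. Both groups shared the FVB/N strain background and the genotype Katushka+ EGFP+, and each had 1 sample. The labels do not name the promoters that drive the reporters, nor how many hearts were pooled. A test between tissues is not possible with 1 library of each, and no difference given here has a replicate check. The labelled tissues were not checked at independent marker genes, because no mm9 annotation was used here. Nppa and Nppb are the locus described, so they are no check of the labels.

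Nppa encodes atrial natriuretic factor and Nppb brain natriuretic peptide, hormones that lower blood pressure and promote salt and water loss. In the embryonic heart Nppa is a classical marker of the working myocardium of the forming chambers, and both genes are reactivated in stressed adult ventricles. The canal keeps a slowly conducting phenotype, in which T-box repressors such as TBX2 and TBX3 are known to hold chamber genes including Nppa at low levels. In the RefSeq order of protein-coding genes Nppb is preceded by Mfn2, Plod1 and 2510039O18Rik and Nppa is followed by Clcn6. Mfn2 encodes a mitochondrial fusion protein and Clcn6 an endosomal chloride transporter.

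The promoters of both genes are shown because the region was set around these genes and a chamber peak lay near the position of each. Whether any peak covers a promoter was not determined. Both promoters matched the RefSeq table, which gives 250 bases before to 50 after a start site in GRCm38.p6. That build is not the one of the peaks, so these coordinates cannot be set against peak positions. The Nppa promoter lies at chr4:148000472-148000771 and the Nppb promoter at chr4:147985650-147985949, both on the plus strand. Capitals mark 5 motifs.
Nppa: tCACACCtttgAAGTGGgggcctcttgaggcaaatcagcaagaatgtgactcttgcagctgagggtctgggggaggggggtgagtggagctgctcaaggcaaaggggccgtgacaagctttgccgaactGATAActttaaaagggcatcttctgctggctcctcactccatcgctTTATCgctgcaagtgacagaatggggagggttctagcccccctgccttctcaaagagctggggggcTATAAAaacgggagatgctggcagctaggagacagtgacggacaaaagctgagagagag
Nppb: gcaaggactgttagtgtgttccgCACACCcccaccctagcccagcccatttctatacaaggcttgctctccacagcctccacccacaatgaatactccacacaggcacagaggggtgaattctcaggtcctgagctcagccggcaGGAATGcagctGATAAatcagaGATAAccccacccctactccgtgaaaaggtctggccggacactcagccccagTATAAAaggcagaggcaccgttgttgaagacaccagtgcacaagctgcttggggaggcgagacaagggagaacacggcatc

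Both promoters held TATAAA on the forward strand (the letters of the TATA box), GATAA on either strand (bound by GATA factors such as GATA4) and GGTGTG on either strand (the core letters of T-box sites). TATAAA began 31 bases before the start site of the table in Nppb and 9 bases before it in Nppa, closer than a TATA box usually stands to a start site. Each promoter had 2 matches to GATAA. In Nppa they began 121 bases (forward strand) and 75 bases (reverse strand) before the start site of the table, and in Nppb 94 and 83 bases before it, both on the forward strand. The T-box letters, on the reverse strand in both, began 249 bases before the Nppa and 227 bases before the Nppb start. In Nppa they were followed closely by AAGTGG, the letters of NK2 homeodomain sites bound by factors such as NKX2-5, which began 239 bases before the start. Nppb had no match to these letters in its window but 1 to CATTCC, the MCAT motif of TEAD factors, on the reverse strand, beginning 105 bases before the start. Among 32851 promoters of 300 bases, 8.32% held TATAAA, 25.4% GATAA, 19% GGTGTG, 16.9% AAGTGG and 14.7% CATTCC, the last 4 counted on both strands. No matched letters overlapped in either promoter. A match describes the letters only.

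Each deposited peak carries a whole-number signal value, which the file headers do not name, and a score, the caller's Log(ER), with peaks listed above a threshold of 2. Values are not scaled between the lists, and the caller scored each chromosome separately. On chromosome 4 the chamber list had 4543 peaks and the AVC list 5389, with a lowest listed signal of 23 in the chambers and 26 in the AVC. The AVC list was thus the longer one on this chromosome, while in the locus it held 3 peaks beside 18.

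At Nppb itself the chamber list had a pair of peaks and the AVC list none. The first, at 147360319 to 147360639, had a signal of 25 and a score of 2.28. The second, at 147360672 to 147361104, had a signal of 42 and a score of 4.88, and only 32 bases separated them. The stronger of the pair was the second highest peak of the locus and stood at percentile 83.7 of the chamber peaks of chromosome 4 by score. The nearest AVC peak to Nppb, at 147397568 to 147398186, lay 37.9 kb from its position, beyond Nppa. Both chamber peaks had their midpoints within 1 kb of the position taken for Nppb. That position is approximate, so whether these peaks cover the promoter or the body of Nppb was not determined.

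Near Nppa the chamber list had 1 peak, at 147376911 to 147377164, 254 bp wide, with a signal of 34 and a score of 3.59. It stood 2.04 kb above the approximate position of Nppa, towards Clcn6. It ranked 1204 of the 4543 chamber peaks of the chromosome by score (percentile 72.3). No AVC peak was listed between the Nppb and Nppa positions or within 20 kb of them. The AVC peak closest to Nppa was the one already given for Nppb, 22.9 kb above its position, which was 619 bp wide and had a signal of 35 and a score of 3.14. From 1 kb below Nppb to 3 kb above Nppa there were thus 3 chamber peaks with a summed signal of 101 and no AVC peak.

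**Figure D1:**
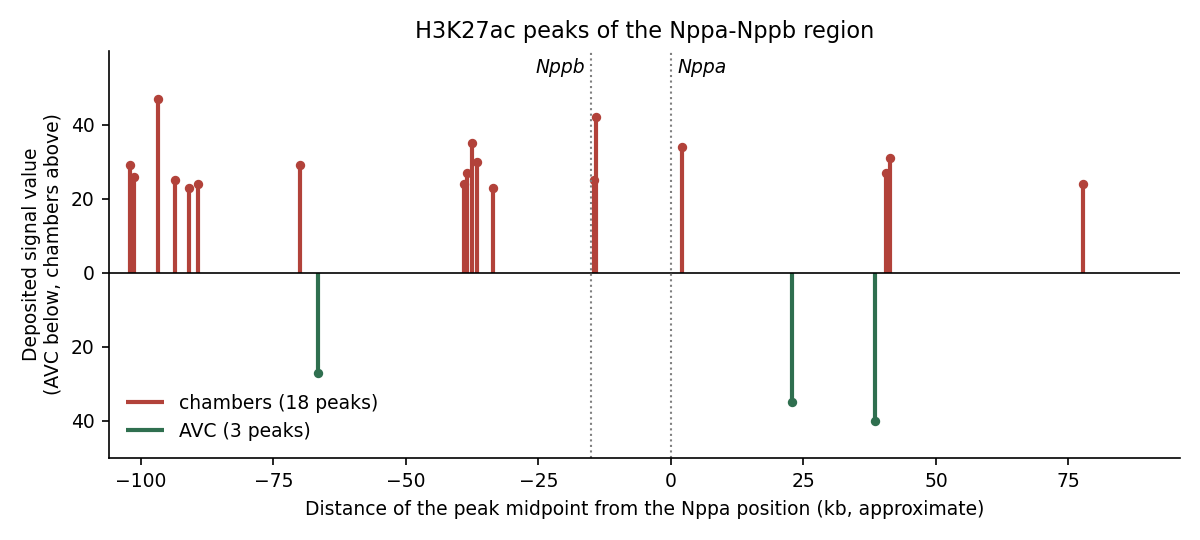
Deposited signal value of each peak (vertical axis, unscaled; chambers upwards, AVC downwards) against the distance of its midpoint from the approximate Nppa position in kb; each stem is 1 peak, and dotted lines mark Nppb and Nppa. The 18 chamber peaks form groups on both sides of the genes and at Nppb, whereas the 3 AVC peaks lie over 20 kb from both genes and between 1.70 and 17.3 kb from the nearest chamber peak, overlapping none.

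Below Nppb, on the side of Plod1 and Mfn2, the chamber list had 12 peaks and the AVC list 1. The chamber peaks nearest to Nppb on this side were 5 peaks within 5.77 kb, from 147335736 to 147341500, centred 21.4 kb below its position. Their signals were 24, 27, 35, 30 and 23 in order of position, so the middle of the group was highest, and that peak, at 147337337 to 147337676, had a score of 3.74. The nearest AVC peak to this group was 27.1 kb away. The group held 26.5% of the chamber signal of the locus, a sum of 139 beside the 101 of the 3 peaks at Nppb and Nppa.

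The strongest peak of the locus was further out. A second group of 6 chamber peaks ran over 12.9 kb from 147272881 to 147285818, centred 80.7 kb below Nppb. Its highest peak, at 147278040 to 147278439, had a signal of 47 and a score of 5.73, the highest in the locus and the only one of either list at 5 or more there. It ranked 555 of 4543 on the chromosome (percentile 87.6). The other 5 had signals from 23 to 29. The nearest AVC peak was 22.5 kb from this group. It held 33.1% of the chamber signal of the locus, the largest part of any group. Peaks were not assigned to genes here. Whether this group, or the other peaks below Nppb, belong to Nppb and Nppa or to a neighbouring gene was not tested.

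Peaks farther from the genes completed the pattern. Between the 2 groups a single chamber peak at 147304893 to 147305302 had a signal of 29 and a score of 2.83. The AVC peak closest to it, at 147308305 to 147308621, began about 3 kb beyond its end and was the weakest AVC peak of the locus, with a signal of 27 and a score of 2.19. Above Nppa, a chamber pair at 147415460 to 147415862 (signal 27) and 147416277 to 147416510 (signal 31, score 3.13) faced the strongest AVC peak, at 147413257 to 147413760, with a signal of 40 and a score of 3.79. A gap of 1.70 kb between the first of this pair and that AVC peak was the shortest distance between peaks of the 2 lists in the locus. The last chamber peak, at 147452621 to 147452983, had a signal of 24. More than 3 kb above Nppa the chamber list thus had 3 peaks and the AVC list 2. The summed chamber signal was 82 there and 342 below Nppb, and the summed AVC signal 75 and 27. Signals are not scaled between the lists, so these sums can be compared only within a list.

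All but 1 of the peaks of the locus had scores under 5. Chamber signals ran from 23 over a median of 27 to 47, beside a median of 28 over the chromosome, and 8 of the 18 scores lay above the chromosome's median of 2.69. Of 18 chamber peaks 1 had a score of 5 or more (5.56%), against 15.9% of the chamber peaks of the chromosome. The 3 AVC peaks had signals of 27, 35 and 40 and a median score of 3.14, and none reached 5, against 9.39% on the chromosome. The highest scores on the chromosome were 30.41 (chambers) and 30.24 (AVC). The lists thus differed in the locus by the number of peaks, while their scores lay within the common range of the chromosome. That number counts close neighbours separately. Joined at gaps of up to 5 kb, the 18 chamber peaks formed 7 groups, while the 3 AVC peaks stayed apart.

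**Figure D2:**
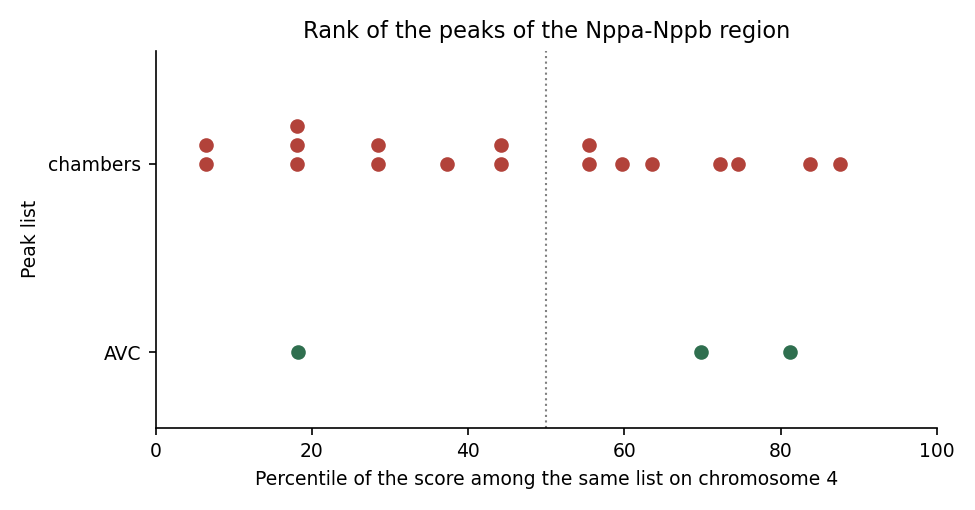
Percentile of the score of each peak of the region among all chromosome 4 peaks of its own list (horizontal axis); each point is 1 peak, equal percentiles are stacked, and the dotted line is the 50th percentile. Chamber peaks spread from 6.47 to 87.6, with the pair at Nppb at 28.4 and 83.7 and the peak near Nppa at 72.3; the 3 AVC peaks stand at 18.2, 69.8 and 81.3.

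Widths followed those of the lists. Chamber peaks of the locus were 126 to 433 bp wide with a median of 330.5 bp, and the chromosome's median was 316 bp. At least 300 bp was reached by 10 of 18, against 56% on the chromosome. AVC peaks were 317, 619 and 504 bp wide in order of position, beside a median of 471 bp, and all 3 reached 300 bp, against 90.5% on the chromosome. Signal divided by covered kb was 93.3 in the chambers (chromosome 107.4) and 70.8 in the AVC (chromosome 83.0). The signal is not named as a read count, so this quotient need not be a density.

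No peak of the locus was called in both tissues. With an overlap of 1 bp counted as shared, 0 of 18 chamber peaks overlapped an AVC peak, which allows a share of up to 16.7% (3 counts of 18), and the exact Clopper-Pearson 95% interval was 0 to 18.5%. The background was 31.6% over the whole chamber list and 29.1% on chromosome 4. The closer background is the 3989 chamber peaks of the chromosome with scores in the range of the locus, of which 22.9% overlapped an AVC peak. The 2 highest chamber peaks of the locus can be set beside the 203 chamber peaks of the chromosome with scores from 4.88 to 5.73, of which 48.8% overlapped an AVC peak. That range was set by the scores of the 2 peaks, which are too few to read against this share. Of the 3 AVC peaks none overlapped a chamber peak, against 23.2% both over the list and on the chromosome and 17% at scores in the range of the locus. The 3 peaks are too few to read against that background, since the interval reached 70.8%. Intervals cover counting error only, and they take peaks as independent, which neighbouring peaks are not. With 3 AVC peaks in the locus, few chamber peaks could have overlapped one, so the 0 of 18 is not separate from the peak numbers.

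Distances rest on the same peak numbers and are not a separate result. No chamber peak of the locus had an AVC peak within 1 kb. Of chromosome 4 chamber peaks with scores in this range 40.5% had one, the overlapping ones included. The median distance in the locus to the nearest AVC peak was 28.1 kb (range 1.70 to 38.9). For AVC peaks, none had a chamber peak within 1 kb, against 27.7%. Chamber peaks separated by at most 5 kb formed 132 runs of 5 or more peaks on chromosome 4, and 13 of these (9.85%) contained no peak that overlapped an AVC peak. The locus held 2 of those 13, the group of 5 below Nppb and the group of 6 beyond it. Their place among the 13 was fixed once no chamber peak of the locus overlapped an AVC peak.

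Both lists were cut at a Log(ER) of 2, which fell at unlike signals on chromosome 4. The lowest listed signal was 23 in the chambers (score 2.01) and 26 in the AVC (score 2.08). Of the 18 chamber peaks, 7 had signals of 23 to 25, below any listed in the AVC. Signals are not scaled between the lists, so this says nothing on whether the AVC threshold left those 7 out. The other 11 had signals of 26 or more, among them the stronger Nppb peak, the Nppa peak and the top peaks of both groups. On chromosome 4, 1322 chamber peaks overlapped an AVC peak. For these, the highest overlapping AVC signal was a median 1.15 times the chamber signal (quartiles 0.875 to 1.55). Only sites listed in both tissues enter this ratio, and the signals are unscaled. No such ratio exists in the locus, because no pair overlapped. That a site is not listed in the AVC says that no peak passed the threshold, and it leaves weaker acetylation possible. Fewer acetylated cells and less acetylation per cell cannot be told apart in sorted bulk material.

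AVC peaks made up 3 of 21 peaks in the locus, 14.3% (Clopper-Pearson 95% interval 3.05 to 36.3), with close neighbours counted separately. With scores of at least 3 the share was 28.6% (2 of 7 peaks), and with the region widened by 100 kb on each side 27.3% (9 of 33). AVC peaks made up 54.3% of the peaks on chromosome 4 (53.3 to 55.2) and 56.6% of all peaks. The genome was divided into 200 kb windows on a grid that runs through the locus, and 2538 windows held at least 20 peaks of the 2 lists together. Their AVC percentage had a median of 52.4, and 5% of them lay below 33.9. The 14.3% of the locus, from all its peaks, or a lower value occurred in 3 windows (0.118%), the locus itself included, and in 1 of 159 such windows of chromosome 4, which was the locus. At least 18 chamber peaks were found in 686 windows, and in 3 of these, again with the locus, no chamber peak overlapped an AVC peak. With the cut lowered to 10 peaks, so low an AVC percentage occurred in 6 of 5819 windows (0.103%). The locus passed the cuts of 20 and 10 peaks only through its chamber peaks, and the cut of 18 is its own count. These shares therefore do not measure how unusual the locus is. The place of the grid also matters for a region centred on its genes. With windows counted from position 1, which split the locus, none of 2525 with at least 20 peaks had so low an AVC percentage.

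**Figure D3:**
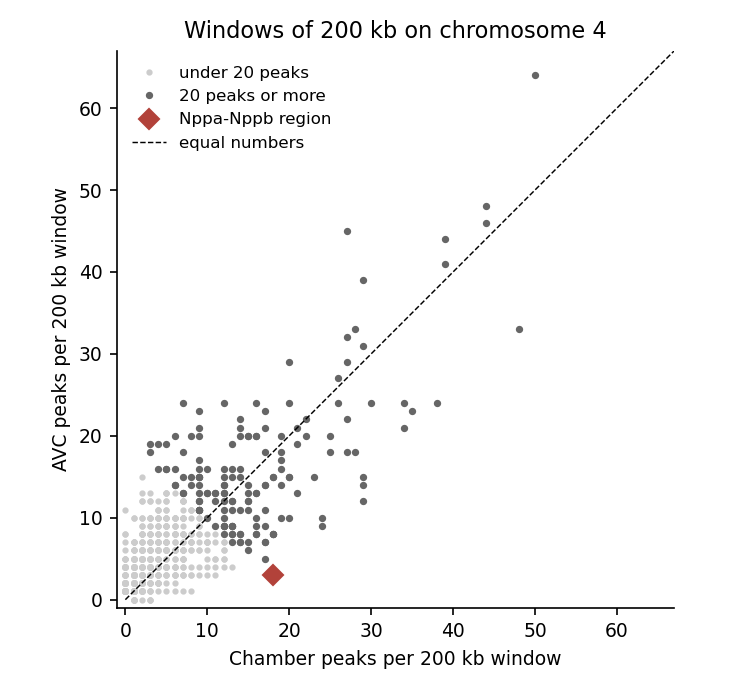
AVC peaks (vertical axis) against chamber peaks (horizontal axis) in each 200 kb window of chromosome 4; dark points hold 20 peaks or more, pale points fewer, and the dashed line marks equal numbers. The Nppa-Nppb region (diamond, 18 chamber and 3 AVC peaks) lies below all other windows with 20 peaks or more, a number it reaches only through its chamber peaks.

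Set against the signal of its chromosome, the locus took 0.317% of the summed chamber signal (525 of 165618) and 0.0474% of the AVC signal (102 of 215125), a ratio of 6.69. With scores of at least 3 alone the shares were 0.202% and 0.0644%, a ratio of 3.13. The covered length moved in the same way, from 5.63 kb in the chambers, 0.365% of the territory on the chromosome, to 1.44 kb in the AVC, 0.0555%, a ratio of 6.57. On chromosome 4 each signal value found in the locus went with a single score in a list, whatever the peak width. The sums are sums of such per-peak values, which rise with the number of peaks called, and not a total of acetylation. These shares describe the whole 200 kb region rather than Nppa and Nppb alone.

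The flanks of the locus held other proportions. In the 200 kb directly below there were 5 chamber and 7 AVC peaks, of which 3 and 3 overlapped, and in the 200 kb directly above 1 and 1, with no overlap. In 10 windows of 200 kb, 5 on either side, 108 chamber and 116 AVC peaks were found, an AVC percentage of 51.8, and 47.2% of the chamber and 41.4% of the AVC peaks overlapped. The window 600 kb below, the densest, with 29 chamber and 39 AVC peaks, supplied 23 of the 51 overlapping chamber peaks; without it 35.4% of the chamber and 32.5% of the AVC peaks overlapped, in a setting chosen after seeing the data. Chamber peaks also outnumbered AVC peaks in the windows 600, 800 and 1000 kb above, by 10 to 5, 21 to 13 and 29 to 15, but there 2, 5 and 10 of the chamber peaks overlapped an AVC peak. The windows 400 and 800 kb below also had more AVC peaks, 24 beside 7 chamber peaks and 4 beside none.

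**Figure D4:**
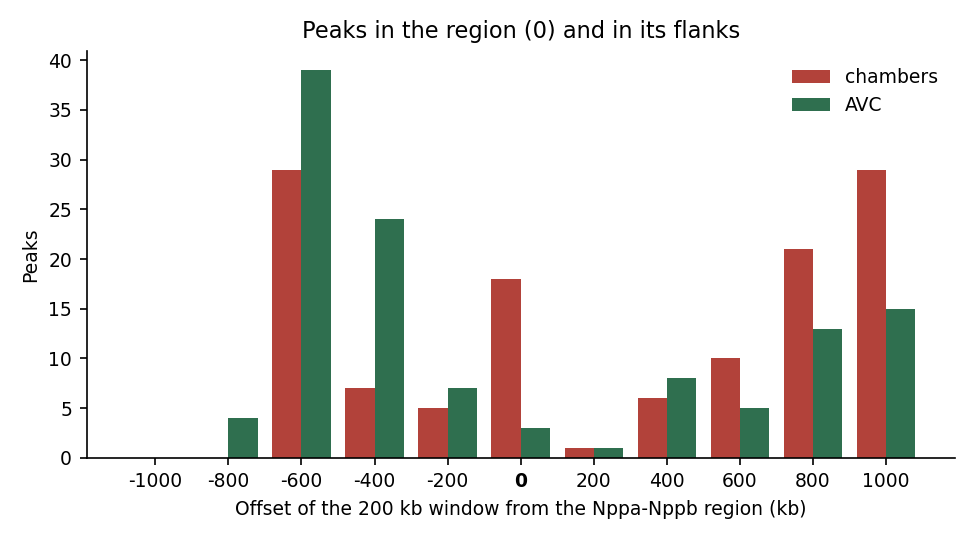
Number of chamber and AVC peaks (vertical axis) in the Nppa-Nppb region, at 0, and in 5 adjoining 200 kb windows on either side (horizontal axis, offset in kb). The region holds 18 chamber and 3 AVC peaks, while the windows next to it hold 5 and 7 (below) and 1 and 1 (above).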

How the data were processed

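Per the submitters' processing notes, Bowtie, SAMtools and the mm9 build were used, without versions or roles. Per the file headers, OccuPeak 1.3 called peaks on each library and chromosome separately above a Log(ER) of 2, for reads of 50 bases and modelled fragments of 68 (chambers) or 60.5 (AVC). The score deposited by the authors is this Log(ER), of unstated base. The signal deposited by the authors is a whole number the headers do not name. Sequencing depth is unknown, and the sources used here do not say whether a control library was used.

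Starts were made 1-based. Peaks overlapping by 1 bp were shared (checked with bedtools 2.31.1 and on simulated peaks). Peaks named are those nearest each gene, the 10 of highest score per list, all scores of 5 or more and the 5 highest without overlap; the others are given because the locus is small. The region, peak groups, motifs and settings were chosen with earlier results of these data known. The sequences are from RefSeq. Other overlap rules, thresholds, widths and regions were tried. Python 3.11.15, pandas 2.3.3 and scipy 1.17.1 were used.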

Additional observations from a re-analysis of the deposited data

How the results depend on the processing

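No peak of either list had a neighbour of the other list within 1 kb, the only other setting that could have found more shared peaks. A reciprocal overlap of 50% and scores of at least 3 in both lists (5 chamber and 2 AVC peaks left) also gave none. An AVC list shortened to the chamber number on the chromosome gave none either. These last settings can only remove overlaps, so their outcome was fixed once no peak overlapped by 1 bp. The AVC percentage stayed below that of the chromosome in all 7 settings tried. It was 28.6% (2 of 7 peaks) against 52.8% with scores of at least 3, and 23.1% against 65.7% among peaks 300 bp wide or more. It was 16.7% in the central 100 kb, 27.3% with the region widened by 100 kb on each side, and 10% with the shortened list. With signals of at least 26 in both lists it was 21.4% against 64.1%, a setting chosen after seeing the data. A signal of 26 scored 2.41 in the chambers and 2.08 in the AVC, so that setting cut the lists at unlike scores. With scores of at least 5 the AVC percentage was 0%, but of 1 peak. The locus's share of the chromosome's signal was 0.0600% (AVC) when narrower peaks than 300 bp were left out, 0.0644% (AVC) and 0.202% (chambers) with scores of at least 3, and 0.0589% (AVC) and 0.396% (chambers) with scores under 10, also added later; by covered bases it was 0.365% (chambers). The planned AVC-to-chamber signal ratio at the strongest chamber peak could not be given, because no AVC peak overlaps it. No paired analysis was possible because there is 1 library per tissue. Depth, which is unknown, limits what an unlisted site shows.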
